A study of Mus musculus with 9 samples.

Results

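Of the transcripts bound by Mbnl2 in mouse hippocampus, 6 that encode proteins of astrocytes are described here: Glul, Slc1a2, Slc1a3, Aqp4, Aldh1l1 and Clu. They were chosen by gene symbol in the authors' lists of crosslinking and immunoprecipitation (CLIP) peaks, of mutation sites and of changed exons. They held 17 of 10407 peaks, in 6 of 4800 genes with a peak, and 8 of 557 mutation sites. CLIP recovers short RNA tags crosslinked to a protein by UV light. A peak is a stretch where the tags of all libraries together pile up beyond what the authors' test allows by chance. A mutation site is a base that is changed in several tags, as happens where protein was crosslinked.

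The study compared 3 Mbnl2 knockout hippocampi with 3 wild-type hippocampi by RNA sequencing and mapped Mbnl2 tags in 3 CLIP libraries of wild-type hippocampus. The knockouts are homozygous for a deletion named ΔE2. All mice were female, on a mixed background of C57BL/6 and 129 SvlmJ per the sample labels, although the series text names BL6 for the CLIP mice. RNA sequencing used animals of 2 to 3 months, and CLIP animals are given as 3 months and as 11 to 12 weeks. The authors' exon lists also draw on a splicing array of knockout against wild type, labelled as brain, whose animals are not described here. No CLIP library of knockout tissue, of input RNA or of a control antibody was analysed here, and no scaling for transcript abundance was made, so every tag count mixes binding with abundance and background. The 3 CLIP libraries held 159144, 209430 and 334857 unique tags.

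Muscleblind-like proteins bind RNA through zinc fingers. In introns they regulate splicing, and in 3' untranslated regions (3'UTRs) they are known to affect where a transcript is localised and how long it lasts. Astrocytes clear the transmitter glutamate from synapses and return it as glutamine, control water flow at blood vessels and secrete lipoproteins and chaperones. Some of their transcripts, among them those of glutamate transporters, are carried into the fine processes of the cell.

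Mbnl2 tags were found on the transcripts of glutamate uptake and recycling, of the water channel and of clusterin, nearly all in 3'UTRs, while Aldh1l1 rested on 2 tags. Per 1000000 unique tags (counts per library scaled in this way are written CPM), the peaks of the 6 genes together held 1351, 1089 and 848 CPM in libraries 1, 2 and 3, or 727 tags in all. Glul and Clu gave 62.2% of these tags. Of the 17 peaks, 13 lay in 3'UTRs, 2 in coding sequence and 2 in introns. The 3'UTR share of peaks was 76.5% (95% exact Clopper-Pearson interval 50.1 to 93.2%), against 55.2% over all 10407 peaks. The 3'UTR share of tags at peaks was 93.0% for the 6 genes and 74.9% over all peaks. Peaks of 1 gene share their transcript, so these shares are descriptions. At none of the 17 peaks was a tag found on the opposite strand, and over all peaks such tags made up 0.0223%.

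**Figure D1:**
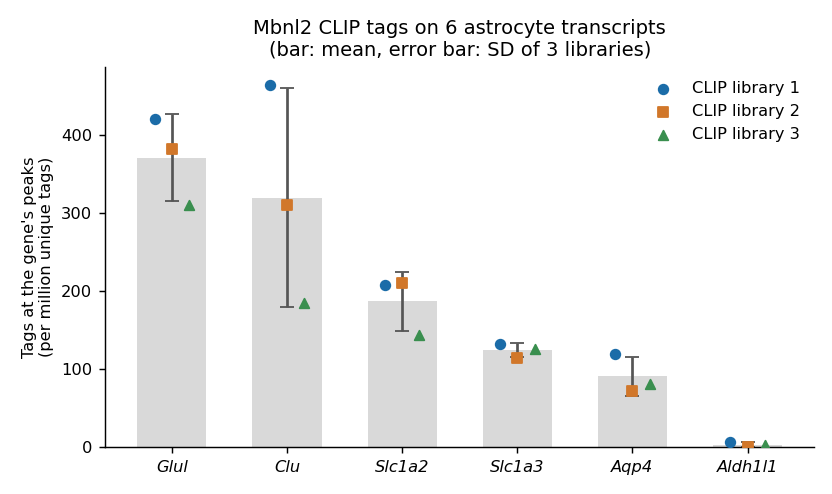
Mbnl2 CLIP tags summed over the peaks of each of the 6 genes, in tags per 1000000 unique tags, for the 3 wild-type libraries (points), with their mean (bar) and SD (error bar). Clu has the widest spread, between 185 in library 3 and 465 in library 1, and Aldh1l1 is close to 0 in each library.

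Glul encodes glutamine synthetase, which turns glutamate into glutamine in astrocytes. Oligodendrocytes also make it, so its tags need not all come from astrocytes. It held 421, 382 and 311 CPM in libraries 1, 2 and 3 summed over its peaks (mean 371 ± 56.0, SD, n = 3). This mean was the highest of the 6 genes. However, Clu was above Glul in library 1 and, with tags counted by their centre, in the mean. For Glul, library 1 was the highest and library 3 the lowest, and their 95% exact counting intervals overlapped. These were 326 to 535 CPM in library 1, 303 to 475 in library 2 and 254 to 376 in library 3. By this sum Glul ranked 33 among the 4800 genes. All 5 of its peaks lay in the 3'UTR on the plus strand of chromosome 1, over a span of 1409 nt. In transcript order the gaps between peak starts were 80, 130, 983 and 216 nt, so 3 peaks stood close together and 2 further downstream.

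The most downstream peak of Glul, at 155756763 (mm9), was the highest, with 118 tags over 1 position. It held 201, 220 and 120 CPM in libraries 1, 2 and 3, and library 3 was the lowest. The upstream peak at 155755434 to 155755436 held 113, 33.4 and 44.8 CPM, highest in library 1. The peak at 155755564 held 37.7, 71.6 and 74.7 CPM and was lowest there. The other peaks, at 155755354 and 155756547, stayed between 18.9 and 50.3 CPM in each library. Coverage around the highest peak of Glul had a shoulder of 40 tags at -69 nt, for which no separate peak is listed.

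Slc1a2 and Slc1a3 encode the main glutamate transporters of astrocytes, which take up the transmitter from the synaptic cleft. Slc1a2 held 207, 210 and 143 CPM summed over its 3 peaks (mean 187 ± 37.8, SD, n = 3). Its highest peak, in the 3'UTR on chromosome 2 at 102621879 (mm9, plus strand), held 138, 134 and 101 CPM. Its coefficient of variation over the libraries, 16.1%, was the lowest of the 17 peaks. Coverage there was broad, with a second summit of 54 tags at -57 nt against 84 tags at the peak, and 84 of 235 tags within 100 nt overlapped the peak itself. The other peaks of Slc1a2 were the 2 of the 6 genes in coding sequence. The one at 102596259 to 102596262 held 25.1, 47.7 and 23.9 CPM and the one at 102601203 held 44.0, 28.6 and 17.9 CPM.

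Slc1a3 held 132, 115 and 125 CPM (mean 124 ± 8.77, SD, n = 3), with the smallest spread for its level among the 6 genes. Both its 3'UTR peaks, 98 nt apart on the minus strand of chromosome 15, were of similar height, with 45 tags at 8584385 to 8584386 and 34 tags at 8584287 to 8584293 (mm9). The upstream one held 44.0, 62.1 and 74.7 CPM in libraries 1, 2 and 3, and the downstream one 88.0, 33.4 and 38.8 CPM. Library 1 had more tags at the downstream peak and libraries 2 and 3 more at the upstream one. Taken singly, neither peak differed between libraries beyond counting error (exact multinomial test, unadjusted p = 0.456 upstream and 0.0532 downstream, adjusted p = 1 for both). Whether the balance between the 2 peaks differed between libraries was not tested. The remaining Slc1a3 peak lay in an intron at 8626983 to 8626998, with 0, 19.1 and 11.9 CPM, and a fraction of 0.375 of it was a SINE repeat. For library 1, a count of 0 allows up to 18.9 CPM (3 tags), so its absence there was within counting error.

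**Figure D2:**
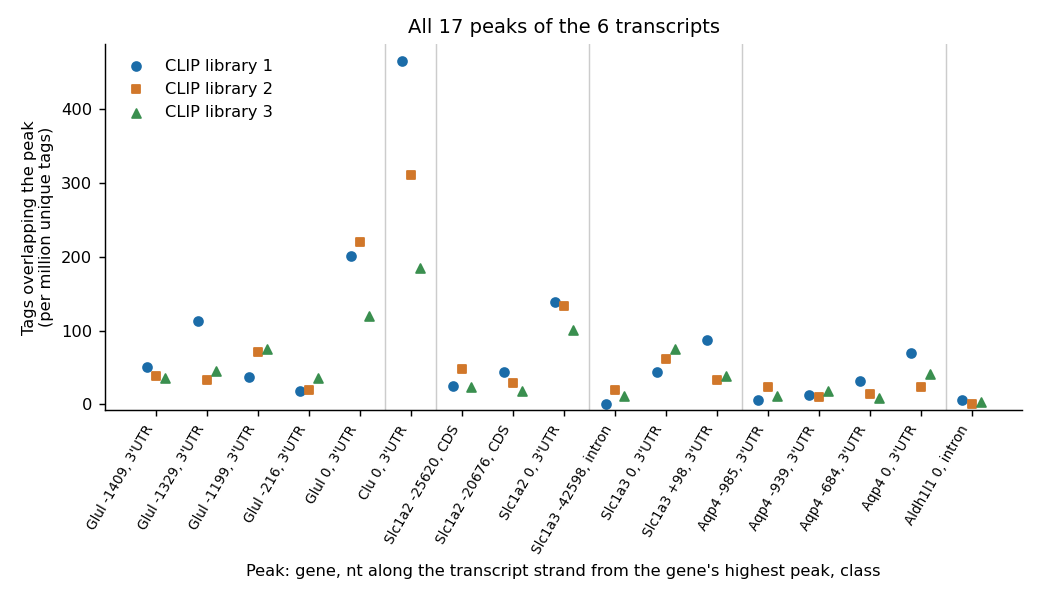
Tags overlapping each of the 17 peaks of the 6 genes in the 3 wild-type CLIP libraries, in tags per 1000000 unique tags; each label gives the gene, the distance in nt from that gene's highest peak along the transcript strand, and the class. The Clu peak and the highest peaks of Glul and Slc1a2 stand above 100 in every library, and no other peak does.

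Aqp4 encodes the water channel of astrocyte endfeet at blood vessels. It held 119, 71.6 and 80.6 CPM (mean 90.5 ± 25.4, SD, n = 3). All 4 peaks lay in its 3'UTR, on the minus strand of chromosome 18, over a span of 985 nt with gaps of 46, 255 and 684 nt between starts in transcript order. The most downstream, at 15549969 to 15549977 (mm9), was the highest, with 69.1, 23.9 and 41.8 CPM. As for Glul, the highest peak was thus the most downstream one. The other 3 Aqp4 peaks had pooled heights of 10 or 11 tags and between 6.28 and 31.4 CPM in each library. No mutation site is listed for Aqp4.

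Aldh1l1 encodes a folate enzyme whose promoter is widely used to mark astrocytes. Its 1 peak, in an intron on chromosome 6 at 90535499 to 90535528 (mm9), had a height of 2 tags and a P of 0.0094 in the authors' deposited table, close to their limit of 0.01. Libraries 1, 2 and 3 held 1, 0 and 1 tags, or 6.28, 0 and 2.99 CPM. A count of 0 in library 2 allows up to 14.3 CPM, so a difference between libraries was not detectable at this depth. The call that Aldh1l1 is bound thus rests on 2 tags, and no 3'UTR peak is listed for it.

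Clu encodes clusterin, a secreted chaperone that astrocytes make in quantity and that neurons and choroid plexus also express. Its 1 peak, in the 3'UTR on chromosome 14 at 66600322 to 66600323 (mm9, plus strand), had 201 tags and ranked 8 by height among the 10407 peaks. It held 465, 310 and 185 CPM in libraries 1, 2 and 3 (95% exact counting intervals 365 to 584, 240 to 396 and 142 to 237 CPM). Library 1 was the highest and library 3 the lowest, and their intervals did not overlap. A second, lower summit of 68 tags lay at 43 nt downstream, for which no separate peak is listed.

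**Figure D3:**
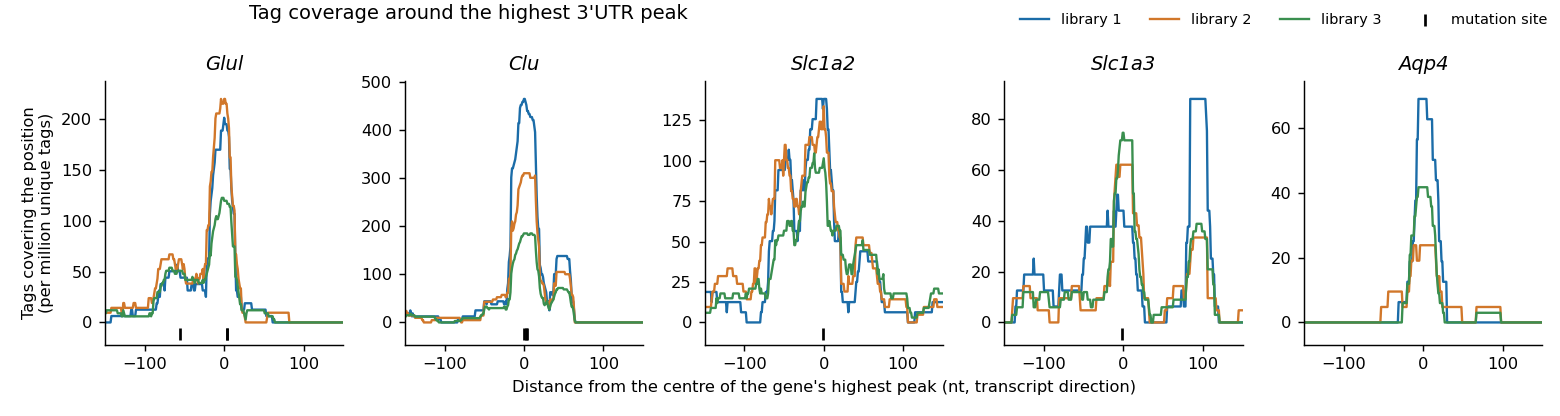
Number of tags covering each position within 150 nt of the centre of the highest peak of Glul, Clu, Slc1a2, Slc1a3 and Aqp4, in tags per 1000000 unique tags for each wild-type CLIP library (lines), with the listed mutation sites below (ticks). Tags form narrow summits, with shoulders in Glul and Slc1a2 and further summits in Clu and Slc1a3, and all ticks but 1 in Glul sit at a summit.

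The order of the members was read at the highest peak of each gene, where tags over a few positions are compared and transcript length does not enter. On this scale the mean was 320 CPM for Clu, 180 for Glul, 124 for Slc1a2, 60.2 for Slc1a3, 44.9 for Aqp4 and 3.09 for Aldh1l1. Clu was above Glul, and Glul above Slc1a2, in 3 of 3 libraries, although their ranges overlapped. Slc1a2 was above Slc1a3, and Aqp4 above Aldh1l1, with ranges that did not overlap. Slc1a3 was above Aqp4 in 2 of 3 libraries and below it in library 1, so these neighbours did not differ beyond their spread. How a tag is assigned to these narrow peaks was read on sums over all peaks of a gene, not on the highest peak. By overlap, these sums were 371 CPM for Glul, 320 for Clu, 187 for Slc1a2, 124 for Slc1a3 and 90.5 for Aqp4. With a tag counted only where its centre lies in the peak, they were 71.2 CPM for Clu, 52.3 for Slc1a3 and 44.1 for Glul. The others then had 35.0 for Aqp4, 10.9 for Slc1a2 and 3.09 for Aldh1l1. On these sums Clu and Slc1a3 moved above Glul, and Slc1a2 below Aqp4. Wider peaks can hold more centres, and the highest peak spanned 1 nt in Slc1a2 and 9 nt in Aqp4. The Slc1a3 sum includes its intron peak of 16 nt. Of the 17 peaks, 15 had a tag in each library, against 64.2% of all 10407 peaks. The 2 others were the intron peaks of Slc1a3 and Aldh1l1, with heights of 8 and 2 tags. Higher peaks are likelier to have a tag in each library, and the median pooled height was 28 for member peaks and 6 over all peaks.

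Whether a peak varied between libraries by more than counting error was tested for all 10407 peaks with an exact multinomial test against the unique tag totals, adjusted by Benjamini-Hochberg. At an adjusted p of 0.05 the exact multinomial test called 23 peaks, or 0.221%, and 1 of the 17 member peaks, that of Clu (adjusted p = 0.00051). Without adjustment, 3 of the 17 were under 0.05, against 4.72% of all peaks, namely Clu and the Glul peaks at 155756763 and 155755434. Peaks of few tags can hardly be called, and the median pooled height was 28 for member peaks and 6 over all peaks. Among peaks with at least 20 tags, adjusted over these alone, the exact multinomial test called 20 of 1100, or 1.82%. It called 1 of the 10 member peaks among them. Tags at Clu were highest in library 1 and lowest in library 3, but the test takes the 3 libraries together and has no direction. It compares libraries and not conditions. Of the 23 called peaks, 20 were highest in library 1, which has the fewest unique tags. The lowest adjusted p of the exact multinomial test among the other member peaks was 0.539, for the Glul peak at 155755434.

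The Clu call did not hold throughout. Its adjusted p in the exact multinomial test was 0.0111 when libraries were scaled to their tags in peaks and 0.00027 without library 2. Among peaks with at least 20 tags, the adjusted p of this test was 6.1e-05. It was 0.239 when tags of 1 library with the same start and end were counted once. The 201 tags at Clu had 129 distinct pairs of start and end within libraries, with 46, 40 and 43 in libraries 1, 2 and 3, and 9 of these pairs occurred in all 3 libraries. The adjusted p was 1 without library 1, without library 3 and with tags counted by their centre. Ttr, a choroid plexus transcript, also differed between libraries (adjusted p = 1.5e-35 in the exact multinomial test), with 157, 1031 and 281 CPM at its peak. The choroid plexus markers, 3 of 5 with a peak, summed to between 157 CPM in library 1 and 1055 CPM in library 2, so they were lowest where Clu was highest. Kl and Aqp1 of that list had no listed peak. The part of depth and of these markers in the Clu result was not tested.

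Most listed mutation sites lay at the same summits, but they were called on the same pooled tags as the peaks. Clu and Glul had 3 sites each, Slc1a2 and Slc1a3 1 each and Aqp4 and Aldh1l1 none listed, and all 8 lay in 3'UTRs, against 67.0% of all 557 sites. In Clu the sites at 66600322, 66600324 and 66600326 had 4 of 201, 5 of 200 and 4 of 197 tags with a mutation, or 1.99, 2.50 and 2.03% in the authors' deposited table. The Glul sites at 155756766 and 155756767 had 6 of 116 and 6 of 112 tags mutated, or 5.17% (95% exact interval 1.92 to 10.9%) and 5.36%. The other Glul site, at 155756707, in the shoulder at -56 nt from the highest peak, had 5 of 38, or 13.2% (4.41 to 28.1%). The Slc1a2 site at 102621878 had 4 of 79 tags mutated, or 5.06% (1.40 to 12.5%). The Slc1a3 site at 8584387 had 5 of 44, or 11.4% (3.79 to 24.6%).

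A distance of at most 5 nt to a peak was found for 7 of these 8 sites and for 33.2% of all sites, and 1 site lay inside a peak, in Clu. A site needs at least 4 mutated tags, so deeply covered positions are likelier to be listed, and this closeness is not independent of the peaks. Neighbouring sites of 1 gene are not replicates. The median share of mutated tags was 5.12% in the 6 genes and 14.1% over all sites. Depth moves with this share: the member sites had a median of 114 tags and all sites 40, and the 118 sites with at least 100 tags had a median of 4.06%. The tags over each site came from all 3 libraries, for instance 31, 45 and 40 at the Glul site 155756766. The site list gives mutated tags for the libraries together.

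Tags on the 6 genes were then set beside those on markers of other cell types, as sums over peaks that are not divided by transcript length. In dissected tissue, fewer cells of a type and less RNA per cell cannot be told apart. Glul is also made by oligodendrocytes and Clu by neurons and choroid plexus, so the 6 genes do not stand for astrocytes alone. The 6 genes held 1351, 1089 and 848 CPM, against 2953, 2259 and 1953 CPM for the oligodendrocyte markers, 6 of 8 with a peak. The mean log2 ratio of the 6 genes to these markers was -1.13 ± 0.0753 (SD, n = 3), negative in 3 of 3 libraries. Neuron markers, 8 of 8 with a peak, held 2689, 2273 and 1828 CPM, and the mean log2 ratio of the 6 genes to them was -1.05 ± 0.0576 (SD, n = 3). This direction rested on Snap25, a protein of transmitter release, which held 1490 ± 351 CPM (SD, n = 3) and 65.0% of the neuron list's tags. Without Snap25 the 6 genes held 1351, 1089 and 848 CPM, against 892, 707 and 720 CPM for the other neuron markers, and the mean log2 ratio turned to 0.49 ± 0.216 (SD, n = 3). Without Mbp, which held 46.5% of the oligodendrocyte list's tags, the ratio to that list was -0.22 ± 0.129 (SD, n = 3). Both times the top gene left the marker list only, while the 6 genes kept Glul and Clu, which gave 62.2% of their tags. Whether the turn without Snap25 holds with the top member gene also left out was not tested. For each of these ratios the two-sided exact sign-flip permutation test gave p = 0.25, the smallest that 3 libraries allow, so no threshold could be reached. With tags counted by their centres, the ratio to oligodendrocyte markers turned to 0.48.

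Markers of microglia and endothelium carried few tags. Of the microglia markers, Tmem119 alone had a listed peak, with 3 tags, and Cx3cr1, Aif1, Csf1r, P2ry12 and Itgam had none. Endothelium markers, 4 of 5 with a peak, summed to between 14.3 and 50.3 CPM, with the most tags on Cdh5 (7 tags), and Cldn5 had no listed peak. Mag and Mog of the oligodendrocyte list also had none. Among the defining markers of astrocytes, Gfap, an intermediate filament protein, had no listed peak, whereas Aldoc held 195 ± 52.3, S100b 41.6 ± 19.7 and Gja1 20.01 ± 12.3 CPM (SD, n = 3).

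**Figure D4:**
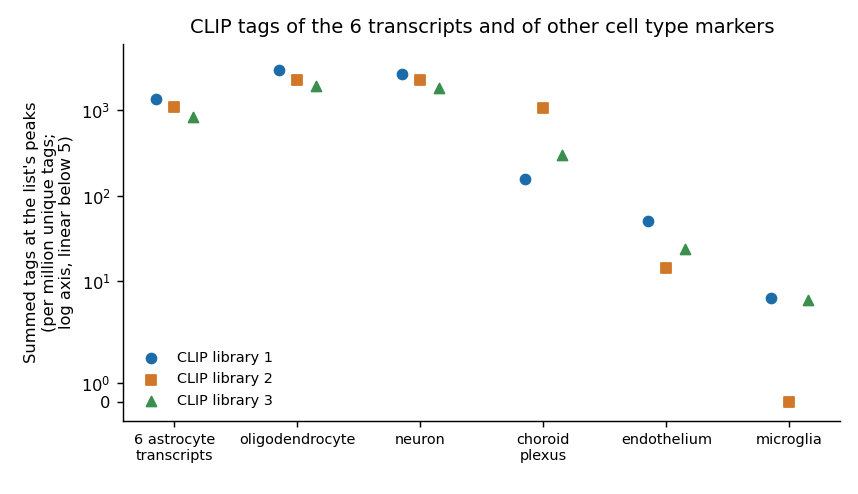
Tags summed over the peaks of the 6 astrocyte transcripts and of marker lists of 5 other cell types, in tags per 1000000 unique tags for each wild-type CLIP library, on a log axis that is linear below 5. The 6 transcripts lie below the oligodendrocyte and neuron lists in every library. Without Snap25 in the neuron list, and with all 6 transcripts kept, they lie above it. The choroid plexus list spans 157 to 1055.

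A wider list of 39 other genes typical of astrocytes showed that peaks were common but uneven. Of these, 29 had a peak, with 61 peaks of which 49 lay in 3'UTRs, and their median was 41.6 CPM per gene, beside 12.3 CPM over all 4800 genes with a peak. The most tags fell on the hormone-processing enzyme gene Cpe (436 ± 83.8), Itm2b (288 ± 37.8), Sparcl1 (210 ± 30.2), Aldoc (195 ± 52.3) and Nfib (158 ± 41.0 CPM, SD, n = 3). Cpe, Itm2b and Nfib are also expressed by neurons, so their tags need not come from astrocytes. Mutation sites were listed in 7 of the 29, against 3.90% of all genes with a peak. A site needs at least 4 mutated tags, so genes with more tags, as in this list, are likelier to have one. The sites were 3 in Mt3, 2 each in Cpe, Sparcl1, Slc4a4, Gpr37l1 and Slc25a18 and 1 in Aldoc. Mt3, a metallothionein, had only 8.16 ± 7.56 CPM (SD, n = 3) at its peak. The genes without a listed peak were Gjb6, Gfap, Mt1, Mt2, Sox9, Htra1, Ntsr2, Mfge8, Prdx6 and F3.

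Other genes of glutamate handling were also bound in 3'UTRs. Of 16 such genes, 12 had a peak, and 45 of their 48 peaks lay in 3'UTRs, against 55.2% of all peaks. Gad1, which makes GABA from glutamate, held 142 ± 24.1, the glutamine transporter Slc38a1 112 ± 11.3, the vesicular transporter Slc17a7 84.2 ± 11.5 and the GABA transporter Slc6a11 73.7 ± 10.9 CPM (SD, n = 3). Slc1a1 and Slc1a4, relatives of Slc1a2 and Slc1a3, and the glutamine transporters Slc38a3 and Slc38a5 had no listed peak.

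Genes with the most similar tags over the 3 libraries were found by the Euclidean distance of log2(CPM + 1), summed over peaks. Nearest to Glul were Dpysl2 (0.07), Tubb4 (0.13) and Taok1 (0.17), and nearest to Slc1a2 were Nat8l (0.15), Tspan7 (0.18) and Eno2 (0.18). For Slc1a3 they were Kcnj10 (0.10), Ywhah (0.12) and Rab6b (0.14), and for Aqp4 Camkv (0.05), Lsamp (0.14) and Arhgef12 (0.19). Clu had no close match, with Cdk8 (0.43), Calm3 (0.53) and Nptx1 (0.58) the nearest, and 22 genes tied with Aldh1l1 at its 2 tags. With 3 libraries this distance describes level more than pattern.

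The knockout comparison asks which exons depend on Mbnl2, and none of the 6 genes appears in its lists. The comparison used RNA-seq of hippocampus and a splicing array that is labelled as brain. Its RNA-seq libraries held 2035836 to 5166516 junction-spanning fragments in knockout and 4443079 to 6981448 in wild type. The authors' deposited tables of 209 changed exons by RNA-seq, 290 by RNA-seq or array, 16 further array targets, 271 target genes and 468 array events, and the shorter lists drawn from them, name none of Glul, Slc1a2, Slc1a3, Aqp4, Aldh1l1 and Clu. The list of target genes is short, with 271 genes beside 4800 genes with a CLIP peak. How many of all genes with a peak it names was not counted, so the absence of these 6 is no result about them. Whether exons of these genes were measured without a change, and whether the transcripts changed in amount in the knockout, was not analysed here.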

How the data were processed

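The submitters' processing notes name the mm9 build and the aligners Novoalign and TopHat 1.3.2, without settings. Unique tags per library, pooled peak heights, and tags and mutations per site are counts deposited by the authors, per the file headers. Peaks were called by the authors on pooled libraries at P below 0.01 after Bonferroni correction, and the header of the deposited site list, whose FDR column holds q-values, gives limits of 0.001 for the FDR and 4 for the mutations. The repeat fraction per peak, the tag files' score column and the array separation score were deposited by the authors; neither score was used. No source used here says how reads matching several places were treated, so tags of genes with near-identical copies are uncertain.

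Tags were counted as lines of the tag files that overlapped a peak by at least 1 nt on its strand, once per gene, and divided by the library's unique tags. Counted coverage equalled the deposited height at all 10407 peaks. Tags are not independent molecules beyond the authors' collapsing, so intervals and floors (3 tags) cover counting error only. Labels number the CLIP libraries as separate samples, the authors call them biological replicates, and whether each is from 1 animal is not stated, so their spread may be partly technical. The exact multinomial test was tested on simulated data and adjusted over all peaks at 0.05. Alternatives changed tag assignment, scaling, strand, peak width, minimum height, libraries and, in the ratios, single genes. List genes were matched by symbol or gene ID. Named genes are the members, the 5 genes with the most tags and those with a site in the astrocyte and glutamate lists, the top gene of each marker list and markers without a peak, and the 3 nearest genes. Not every gene that this rule names is reported here. Members and lists were chosen with earlier results of these data known. Sequences at the peaks are not printed, since no mm9 genome was used here. Computation used scipy 1.17.1 with numpy 2.4.6 under Python 3.11.15; tables were read in pandas 2.3.3, and matplotlib 3.10.9 drew the figures.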

Additional observations from a re-analysis of the deposited data

How the results depend on the processing

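Sums of tags depend on how a tag is assigned to these narrow peaks. The 6 genes averaged 1096 CPM, 217 CPM when tags were counted by their centre (between 3.09 for Aldh1l1 and 71.2 for Clu), 1656 CPM with peaks widened by 50 nt and 7018 per 1000000 tags in peaks, where the denominator is smaller by construction. They ranged from 968 to 1220 CPM without 1 library, and moved by less than 1 SD with tags on both strands, peaks of height 10 or more, or each start and end counted once (chosen after seeing the data). The log2 ratio to oligodendrocyte markers was reversed, at 0.48, with tags counted by centre. It ranged from -1.17 to -1.09 without 1 library and was -1.61 without Clu, a choice made after seeing the data, and -0.22 without Mbp. The ratio to neuron markers was reversed, at 0.49, without Snap25, also chosen after seeing the data, and otherwise lay between -1.54 and -0.20. The exact test called 23 peaks, 7 by tag centre and 7 with each start and end counted once. Without 1 library it called between 2 and 14 (6 without library 1, 14 without library 2, 2 without library 3). Every peak called in these refits was among the 23. Among the 1100 peaks with at least 20 tags, adjusted over these alone, it called 20, of which 16 were among the 23. No member site had 8 or more mutations (0 of 8), and sites at a peak numbered 7 within 50 nt, against 1 inside. No paired analysis was possible because the CLIP libraries form 1 group and the exon lists hold no values per animal. Peaks of few tags, such as that of Aldh1l1, cannot show a difference between libraries at this depth.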
